A study of Mus musculus with 6 samples.

Results

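The 8 mouse genes of the retinoid and thyroid hormone receptors were followed across neurons of the medial mammillary nucleus of the hypothalamus: the retinoid X receptors Rxra, Rxrb and Rxrg, the retinoic acid receptors Rara, Rarb and Rarg, and the thyroid hormone receptors Thra and Thrb. They were found by gene name among 55414 genes of the deposited table, each in 1 row. The family was selected on an earlier result from these same libraries, the difference of Rxrg between the classes. That difference of Rxrg is therefore given as a description, and the other 7 receptors are its relatives. The 6 libraries come from fluorescent neurons of male mice, drawn into glass electrodes after papain digestion of brain slices. One group of 3 has the genotype label PV-positive (parvalbumin, replicates 6, 7 and 8) and the other group of 3 the label Drd2-positive (the D2 dopamine receptor, replicates 1, 2 and 3). The sources used here do not name the alleles or reporters behind the fluorescence, the age of the mice or the number of cells or mice per library. Each class is described as 3 biological replicates, without saying whether these are separate mice, so p-values measure the spread between these libraries, which may in part be technical.

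Retinoic acid receptors (RARs) and thyroid hormone receptors (TRs) are transcription factors that sit on DNA and switch genes on when they bind retinoic acid or thyroid hormone. Both work as pairs with a retinoid X receptor (RXR), which also partners the receptors for vitamin D, fatty acids and oxysterols. Without hormone the pairs hold corepressors, and with hormone they exchange them for coactivators. In the brain, Rxrg and Rarb are best known from the striatum, where loss of these receptors in mice lowers expression of the Drd2 gene.

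Sequences in front of the start sites show how such receptors read DNA. The receptors bind 6-base elements, here searched on both strands as the consensus AGGTCA, the variant AGTTCA, the variant GGGTCA and the variant GGTTCA. RXR pairs recognise direct repeats of them, with the spacer setting the partner. The RefSeq promoter table (GRCm38.p6, the mm10 build) held 15 start sites for 7 of the 8 genes. In the 250 bases before the start, 8 of these 15 held at least 1 element, and 38.6% of all 32851 windows of that length did. Rxrg, the gene on which the family was selected, has 2 listed starts. Its windows are shown because the difference between the classes lies in this gene. Both lie outside annotated exons in GENCODE M21, the first before the gene and the second in an intron. Capitals mark the elements in both, and the first window carries its element on the opposite strand.

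Rxrg, first start, chr1:167598112-167598361, plus strand: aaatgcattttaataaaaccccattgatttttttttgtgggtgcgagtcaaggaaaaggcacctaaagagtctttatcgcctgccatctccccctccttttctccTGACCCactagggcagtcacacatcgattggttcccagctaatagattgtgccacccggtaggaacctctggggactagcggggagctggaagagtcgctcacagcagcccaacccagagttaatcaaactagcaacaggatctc
Rxrg, second start, chr1:167618015-167618264, plus strand: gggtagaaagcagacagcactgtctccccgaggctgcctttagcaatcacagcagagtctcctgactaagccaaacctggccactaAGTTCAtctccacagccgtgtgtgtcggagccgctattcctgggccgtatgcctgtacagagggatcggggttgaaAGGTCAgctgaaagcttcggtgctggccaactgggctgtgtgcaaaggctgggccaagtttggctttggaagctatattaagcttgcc

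Neither Rxrg window held a direct repeat with a spacer of 1, 2, 4 or 5 bases. Among the receptors, Rarb held one. It is shown for comparison, since Rarb is a textbook target of its own receptor class. Its 27 bases below contain the repeat (capitals) with a spacer of 5, starting 53 bases before the listed start, within an annotated exon in GENCODE M21. A repeat with this spacer was found in 0.0883% of all windows.
Rarb, chr14:16575508-16575534, minus strand: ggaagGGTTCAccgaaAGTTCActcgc
A match describes letters only and shows neither binding nor control.

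The values are FPKM, fragments scaled for gene length and library depth, so levels can be compared between genes. Low values fell on whole reads in 97.9% to 98.8% of cases (within 0.01 read), which gave library denominators of 23837000 to 33740000 fragments and read numbers for 6 of the 8 receptors. Reads are PCR products without molecular identifiers, so they describe counting error only. Genes at 1 FPKM or more numbered 8610 in PV replicate 7 and 10293 to 12398 in the other 5 libraries. The labels were checked with Pvalb, at 349 to 563 FPKM in PV and 10.4 to 99.5 in Drd2, and with Drd2, at up to 0.0132 FPKM in PV and 7.74 to 55.0 in Drd2, the lowest in replicate 3. All 6 neuron markers were above 0 in all libraries, and 4 of 7 mammillary markers (Lhx1, Lhx5 and Foxb1 among them) were too, while Nkx2-4 and Sim2 were listed at 0 in all PV libraries. Summed markers of other cells varied by library. Microglia (12 genes) ran from 502 to 1797 FPKM in PV and 23.9 to 4068 in Drd2. Oligodendrocytes (10 genes) ran from 69.8 to 337 in PV and 74.2 to 1467 in Drd2. Astrocytes (9 genes) ran from 583 to 703 in PV and 160 to 599 in Drd2. Most of the astrocyte sum was Aldoc, at 485 to 512 FPKM in PV and 137 to 486 in Drd2. Gja1, Slc1a3, Aqp4 and Fgfr3 were highest in Drd2 replicate 2, and Slc1a2, Gfap, Aldh1l1 and S100b in a PV library. Haemoglobin (4 genes) ran from 743 to 3203 FPKM in PV and from 0 to 11.5 in Drd2, and its 3 tested genes all passed. Below, values given for a class stand in the order PV replicates 6, 7, 8 or Drd2 replicates 1, 2, 3 where no replicate is named.

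**Figure D1:**
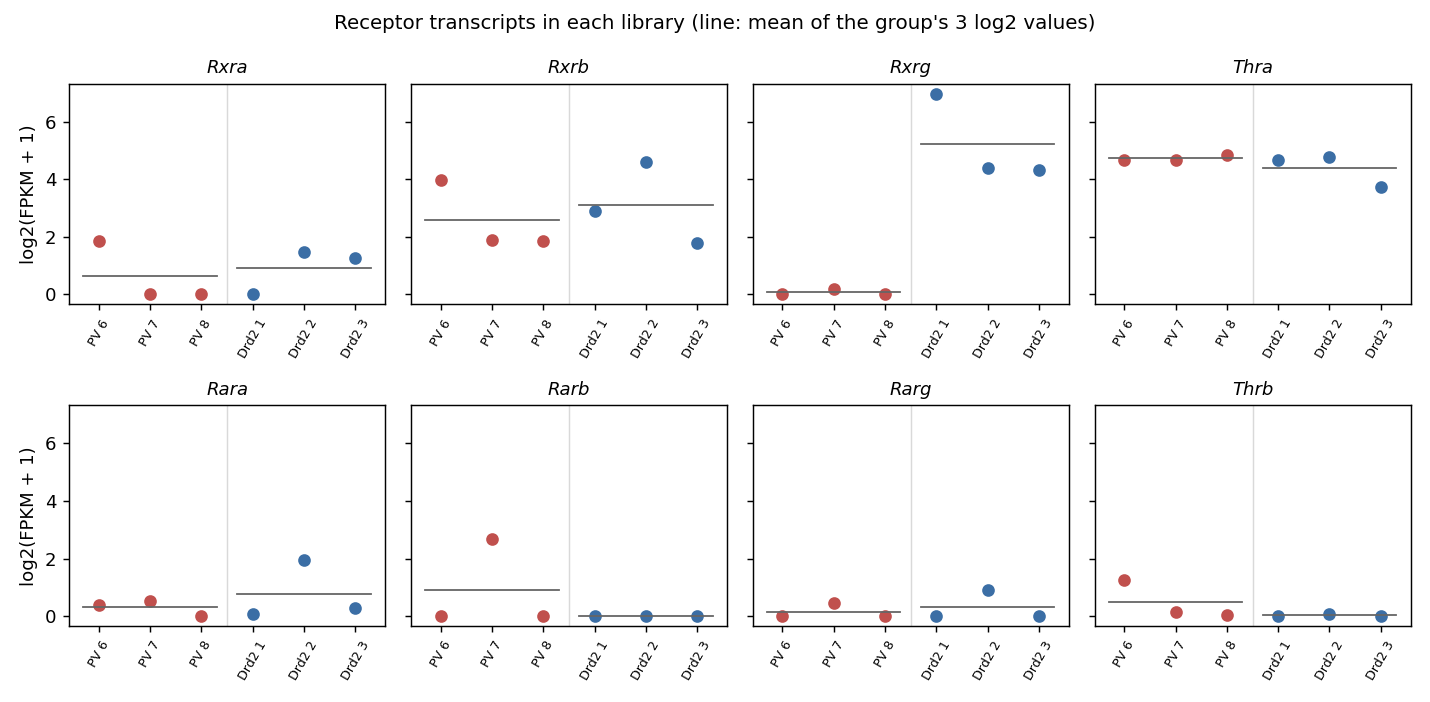
Each panel plots 1 receptor as log2(FPKM + 1) on the y axis against the 6 libraries on the x axis (red PV, blue Drd2; grey line, mean of the group's 3 log2 values). Rxrg is near 0 in all 3 PV libraries and highest in Drd2 replicate 1, at 124 FPKM, while Thra lies between 12.3 and 27.3 FPKM in all 6.

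Rxrg was the receptor in which the classes stood furthest apart. Rxrg (ENSMUSG00000015843, mm10 chromosome 1, 167598384 to 167639623, plus strand), the RXR subtype with the most restricted expression, reached 124, 19.8 and 19.0 FPKM in the Drd2 class. In PV it was at 0.0146 FPKM in replicate 6, 0.142 in replicate 7 and listed at 0 in replicate 8. These values correspond to 9610, 1364 and 1039 reads in the Drd2 libraries and to 1, 9 and 0 reads in the PV libraries. All Drd2 libraries lay above all PV libraries, and the lowest Drd2 value was 134 times the highest PV value. At this depth, and for counting error alone, a count of 0 in PV replicate 8 allows up to 3 reads, or 0.0461 FPKM. In bulk libraries, fewer cells that express a gene and less RNA per cell cannot be told apart.

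Within Drd2 the level was uneven. Replicate 1 stood above the other 2 libraries, and replicates 2 and 3 lay close together. Rxrg exceeded 96.7% of the genes listed above 0 in Drd2 replicate 1, 85.0% in replicate 2 and 82.0% in replicate 3. In PV replicates 6 and 7 it exceeded 2.78% and 16.3%. Drd2 itself was ordered differently among the same libraries, at 42.7, 55.0 and 7.74 FPKM in replicates 1, 2 and 3, so the library with the most Rxrg was not that with the most Drd2. Among the Drd2 libraries, replicate 1 held the least summed microglial signal (23.9 FPKM, with 7 of 12 markers at 0) and replicate 3 the most (4068 FPKM). Oligodendrocyte markers summed to 412, 1467 and 74.2 FPKM in Drd2 replicates 1, 2 and 3, an order that Rxrg did not follow. The part of these other cells in the Rxrg values was not tested. Haemoglobin separated the classes in the direction opposite to Rxrg, and its part in the difference was not tested.

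On the log2(FPKM + 1) scale, which understates changes of weakly expressed genes, the fold of Rxrg (PV minus Drd2) was -5.15 ± 0.81 (SE, n = 3 each). The median over all 11478 genes tested was -0.28, and 6 genes had a more negative fold than Rxrg. Of the 4 receptors with at least 1 FPKM in at least 3 libraries, which is what testing required, Rxrg alone passed in limma (adjusted p = 0.0400), and 0.261% of all genes tested passed. It was also the only one of the 4 whose groups did not overlap, against 19% of all genes tested. Rxrg entered the test only through its Drd2 values and was selected on this same contrast, so neither count is support. The call was lost in 12 of 18 other settings, including each of the 6 that left out 1 library (adjusted p = 0.0596 to 0.220) and voom on recovered reads (adjusted p = 0.276). Over all 18 settings adjusted p ran from 0.0267 to 0.315, and the fold stayed below 0, between -10.32 and -3.07.

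**Figure D2:**
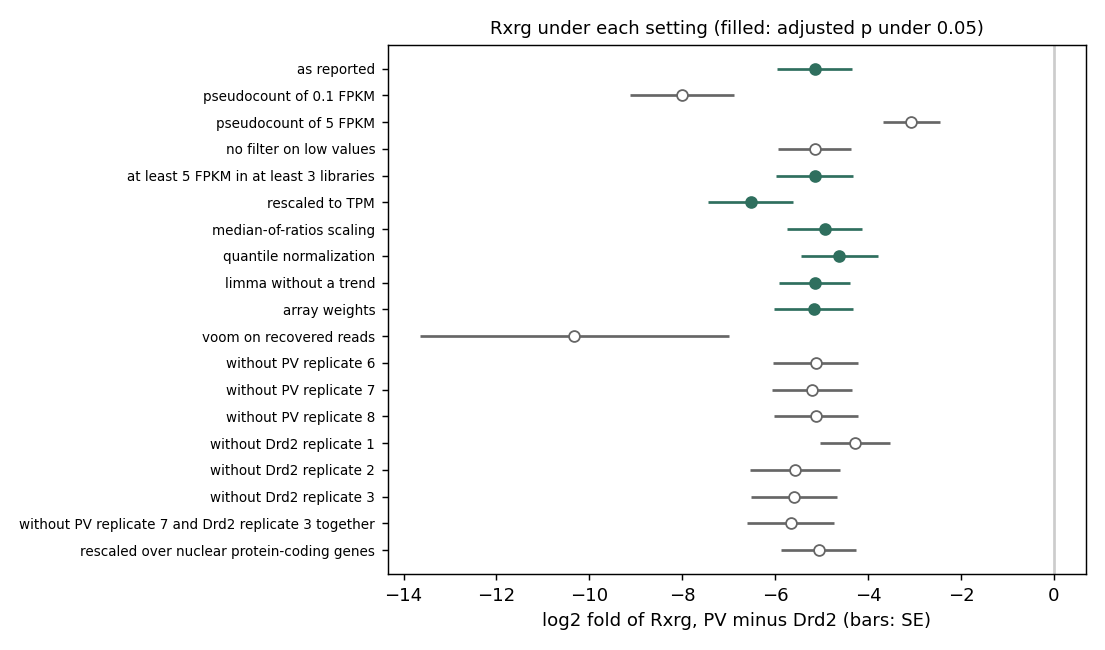
The x axis gives the log2 fold of Rxrg (PV minus Drd2, bars SE) and the y axis the setting; filled points have a limma adjusted p under 0.05. All 19 points lie below 0, from -10.32 with voom to -3.07 with a pseudocount of 5 FPKM, and 7 of them, the reported one included, are filled.

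Rxrb, the broadly expressed RXR subtype, was found in every library. Rxrb (ENSMUSG00000039656, chromosome 17, 34031812 to 34038399) reached 14.7, 2.69 and 2.58 FPKM among PV libraries and 6.36, 23.3 and 2.46 among Drd2 libraries. The highest library of each class stood well above the lowest, and the ranges overlapped. PV averaged 6.66 ± 6.96 FPKM and Drd2 averaged 10.7 ± 11.1 (SD, n = 3 per class). The log2 fold was -0.52 ± 0.90 (SE) and did not pass (limma adjusted p = 0.843); its sign turned without Drd2 replicate 2 (0.23).

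Rxra, the RXR subtype prominent in liver and skin, was weak and patchy. Rxra (ENSMUSG00000015846, chromosome 2, 27676440 to 27762957) was at 2.65 FPKM in PV replicate 6 and listed at 0 in PV replicates 7 and 8. It was listed at 0 in Drd2 replicate 1 and reached 1.74 and 1.41 FPKM in Drd2 replicates 2 and 3. Each class thus held libraries with and without it. The log2 fold was -0.29 ± 0.68 (SE; limma adjusted p = 0.892), and its sign turned with quantile normalization (0.019) and without PV replicate 7 or 8 (0.025 each).

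Because Rxrb and Rxra did not follow Rxrg, the make-up of the RXR transcripts differed between libraries. The sum of the 3 RXR genes was 17.4, 2.83 and 2.58 FPKM among PV libraries and 130.4, 44.8 and 22.8 FPKM among Drd2 libraries. Rxrg made up 0.0841%, 4.996% and 0% of that sum in the PV libraries. In the Drd2 libraries it made up 95.1%, 44.2% and 83.1%. Rxrb was the main RXR transcript in all PV libraries (84.7%, 95.0% and 100%) and, narrowly per length, in Drd2 replicate 2 (52.0%), and Rxrg in Drd2 replicates 1 and 3. Counted in reads, without scaling for length, Drd2 replicate 2 held 2776 of Rxrb and 1364 of Rxrg. The shares rest on the same values that selected Rxrg, and no test was made.

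**Figure D3:**
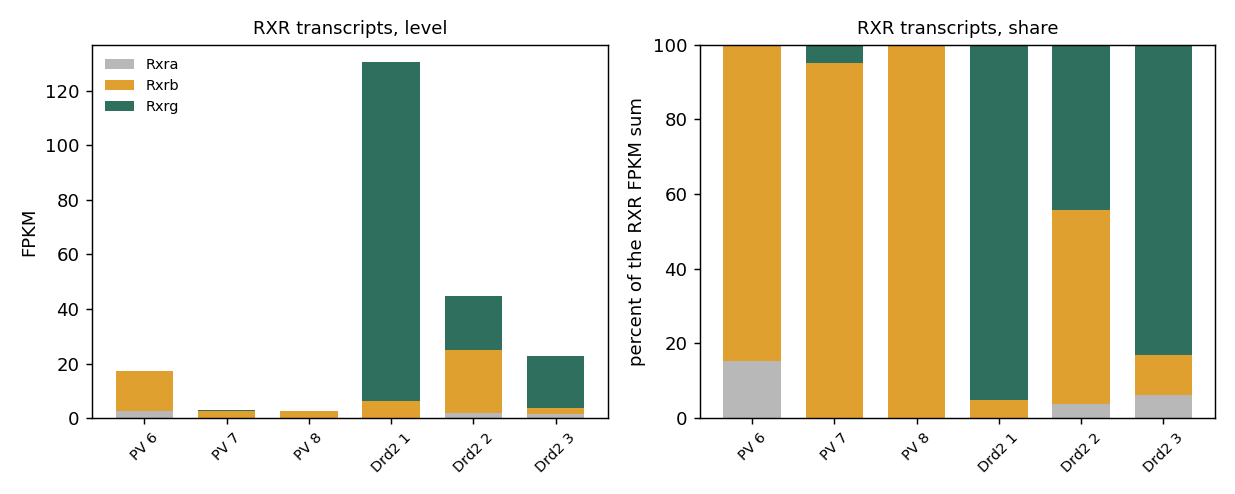
Stacked bars give the FPKM of Rxra, Rxrb and Rxrg (left, y axis in FPKM) and their percent of the RXR sum (right) in each of the 6 libraries on the x axis. Rxrg fills 95.1%, 44.2% and 83.1% of the bars of Drd2 replicates 1, 2 and 3 and at most 4.996% of a PV bar.

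Thra was the most even member of the family. Thra (ENSMUSG00000058756, chromosome 11, 98740638 to 98769006, plus strand) encodes the thyroid hormone receptor that predominates in brain, together with a splice form that does not bind hormone, and gene-level values do not separate them. Its levels were 24.6, 24.4 and 27.3 FPKM among PV libraries and 24.1, 26.3 and 12.3 among Drd2 libraries. The lowest value, in Drd2 replicate 3, was the only one outside 24.1 to 27.3 FPKM. PV averaged 25.4 ± 1.63 FPKM and Drd2 averaged 20.9 ± 7.52 (SD, n = 3 per class). The log2 fold was 0.33 ± 0.46 (SE) and did not pass (limma adjusted p = 0.802). It ran from 0.01 without Drd2 replicate 3 to 0.59 with quantile normalization.

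The end of Thra overlaps that of Nr1d1, which encodes the clock repressor REV-ERB alpha on the opposite strand, over 263 of the 4614 exon bases of Thra (5.70%). The sources used here do not state whether strand was used in counting, so reads from the shared bases cannot be assigned. Nr1d1 was at 14.7, 0.470 and 0.275 FPKM in PV and 15.7, 58.5 and 11.4 in Drd2. The part of Nr1d1 in the Thra values was not tested.

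Thrb, the thyroid hormone receptor known from retina, inner ear and pituitary, was weak and uneven between libraries. Thrb (ENSMUSG00000021779, chromosome 14, 17660261 to 18038090) was at 1.39, 0.112 and 0.0381 FPKM in PV replicates 6, 7 and 8, at 0.0540 in Drd2 replicate 2, and listed at 0 in Drd2 replicates 1 and 3. Only PV replicate 6 reached 1 FPKM, so the gene was not tested. Thra made up 94.7% to 99.9% of the TR sum in PV and 99.8% to 100% in Drd2.

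None of the RARs reached 1 FPKM in 3 libraries, and none was tested. Rara (ENSMUSG00000037992, chromosome 11, 98927818 to 98974942), the broadly expressed subtype, was at 0.2997 and 0.447 FPKM in PV replicates 6 and 7 and listed at 0 in replicate 8. Among Drd2 libraries it was at 0.0475, 2.82 and 0.221 FPKM, or 7, 369 and 23 reads. Drd2 replicate 2 was therefore the only library with more than 1 FPKM, and the classes overlapped.

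Rarb (ENSMUSG00000017491, chromosome 14, 16430839 to 16819156, minus strand), the subtype paired with Rxrg in the striatum, was found in a single library. It was at 5.41 FPKM (789 reads) in PV replicate 7 and listed at 0 in the other 5, all 3 Drd2 libraries among them. Exons of Top2b, a DNA topoisomerase gene on the opposite strand, overlap 1793 of its 5265 exon bases (34.1%). Top2b was at 2.22, 11.8 and 5.35 FPKM in PV replicates 6, 7 and 8 and at 1.63 to 2.24 in Drd2, so its highest library was the one that held Rarb. Its part in the Rarb reads was not tested.

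Rarg (ENSMUSG00000001288, chromosome 15, 102234938 to 102257517), a subtype best known from skin and cartilage, stayed under 1 FPKM throughout. It was at 0.891 FPKM (114 reads) in Drd2 replicate 2, 0.373 (44 reads) in PV replicate 7 and 0.00787 (1 read) in PV replicate 6. The other 3 libraries listed it at 0. The RARs together summed to 0.308, 6.23 and 0 FPKM in PV and to 0.0475, 3.71 and 0.221 in Drd2.

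Several receptors were thus well covered by reads in 1 library and not counted in another of the same class. Rarb was listed at 0 in 5 libraries, Rxra and Rarg in 3, Thrb in 2, and Rxrg and Rara in 1. Among the 4 receptors tested, Rxra and Rxrg were listed at 0 in at least 1 library, as were 24.9% of all genes tested. The number of receptors above 0 was 7, 7 and 3 among PV libraries and 4, 7 and 5 among Drd2 libraries. Absence of a weak receptor from the neurons cannot be read from a listed 0 in such libraries.

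Ordered by the median of 3 libraries, the PV class read Thra (24.6 FPKM), Rxrb (2.69) and Rara (0.2997), with the other 5 at 0.112 FPKM or less. The ranges of Thra and Rxrb did not overlap in PV, nor did those of Rxrb and Rara; from Rara downwards all neighbours overlapped. The Drd2 class read Thra (24.1 FPKM), Rxrg (19.8), Rxrb (6.36), Rxra (1.41) and Rara (0.221), followed by Rarb, Rarg and Thrb at a median of 0. There Thra overlapped Rxrg and Rxrg overlapped Rxrb, while Rxrb and Rxra did not overlap. Within single libraries Thra ranked first among the 8 in all 3 PV libraries and in Drd2 replicate 2, and Rxrg ranked first in Drd2 replicates 1 and 3.

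The genes whose pattern over the 6 libraries was most like that of Rxrg were sought by the root mean square difference of gene-centred log2(FPKM + 1) values. The nearest was Rsph9, a radial spoke protein of cilia (0.55), with 69.3, 39.6 and 25.6 FPKM among Drd2 libraries and listed at 0 throughout PV. Then came Gchfr, the feedback regulator of tetrahydrobiopterin synthesis (0.68; 37.3, 8.21 and 7.09 FPKM in Drd2, listed at 0 in PV), the predicted genes Gm11418 (0.69) and Gm46376 (0.75), and Nmu, the neuropeptide neuromedin U (0.76; 34.5, 5.47 and 9.02 FPKM in Drd2). All 5 had their highest value in Drd2 replicate 1, where Rxrg was highest too. For Thra the nearest were Fam222b (0.12), Brd9 (0.12), the kinase subunit Csnk2a1 (0.15), the kinase Rock2 (0.16) and Zfp248 (0.18), all lowest in Drd2 replicate 3. With 6 libraries and 11478 genes such likeness is a description, and shared highest or lowest libraries come with the selection. The 5 genes most like Rxrg also entered the test only through their Drd2 values.

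The pathway around the receptors was read from 8 lists holding 102 genes beside the receptors, of which 55 could be tested. None passed in limma, and voom on recovered reads gave 0 as well. An unadjusted p under 0.05 was found for 10 of the 55, where the share over all genes tested was 12.8%. Groups did not overlap in 15 of the 55, where the share over all genes tested was the 19% given above. Tested genes that reached 1 FPKM in only 1 class could not overlap, Drd2, Nr4a2 and Rorb among them. Values below are therefore levels and not called changes.

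**Figure D4:**
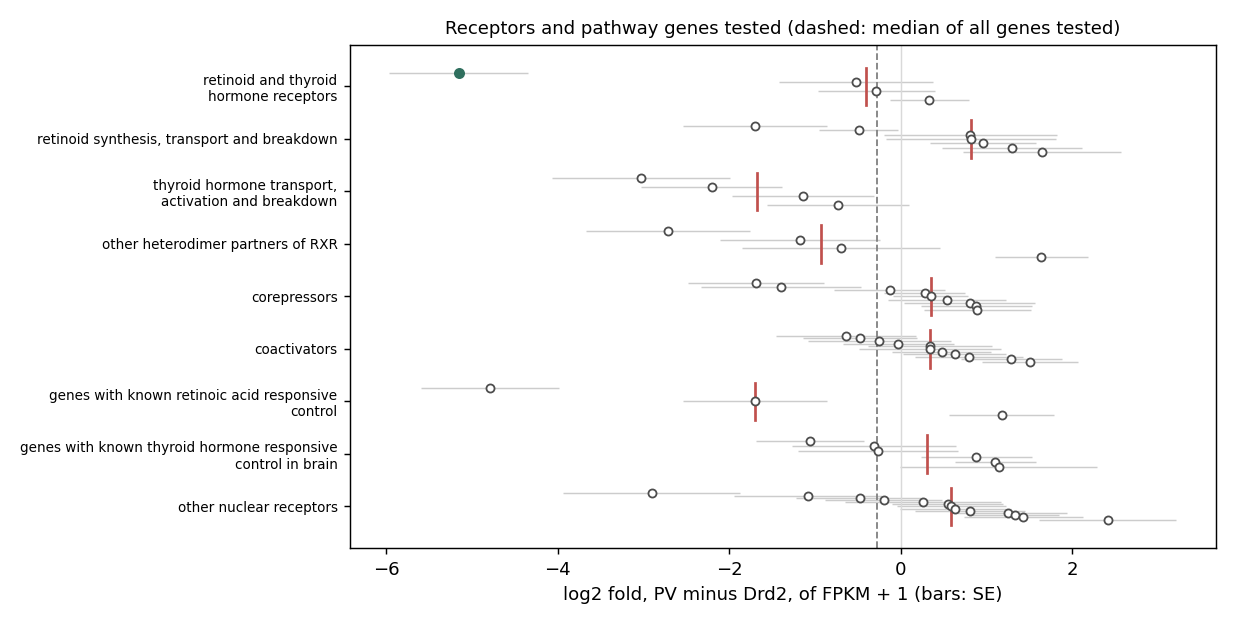
The x axis gives the log2 fold (PV minus Drd2, bars SE) of each receptor or pathway gene tested, by list on the y axis; red marks are list medians, the dashed line is the median of all genes tested (-0.28) and the filled point is Rxrg, at -5.15. Among the pathway lists the point furthest left is Drd2, the gene behind the Drd2 label, at -4.79, which like all open points did not pass.

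Of 22 genes that make, carry or break down retinoids, 7 were tested, with a median log2 fold of 0.82 and 5 folds above 0. Over all genes tested, 61.6% of folds were below 0. Aldh1a1, an enzyme that makes retinoic acid, was at 22.1, 24.6 and 11.5 FPKM in PV and 5.34, 6.53 and 20.2 in Drd2, and the ranges overlapped (log2 fold 0.96 ± 0.62, SE). The related enzymes were weak: Aldh1a2 stayed at or under 0.103 FPKM in every library, and Aldh1a3 reached 1.4 FPKM only in PV replicate 7. Cyp26b1, which degrades retinoic acid, was above 0 only in Drd2 replicate 2, at 0.237 FPKM. The retinol dehydrogenases Rdh11 and Rdh13 had log2 folds of 1.65 ± 0.92 and 1.30 ± 0.82, with overlap. Fabp5, a carrier of retinoic acid and fatty acids, was at 17.9 to 45.7 FPKM in all 6 libraries.

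Of 12 genes that carry, activate or break down thyroid hormone, 4 were tested, all with folds below 0 and a median of -1.67. Of all genes tested, 61.6% had a fold below 0. Dio2, the enzyme that makes the active hormone, was at 4.2 FPKM in PV replicate 6 and 2.1 in Drd2 replicate 3 and at most 0.037 elsewhere. Dio1 and Dio3 were listed at 0 in all 6 libraries. Slc3a2 and Slc7a5, the chains of a large amino acid transporter that also carries thyroid hormone, had log2 folds of -3.03 ± 1.04 and -2.20 ± 0.82 (limma adjusted p = 0.259 and 0.303). Slc3a2 was at 30.3, 0.0205 and 8.23 FPKM in PV and 68.4, 54.2 and 40.9 in Drd2, without overlap. Slc7a8, a relative of Slc7a5, had a log2 fold of -1.14 ± 0.83.

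Other receptors that pair with RXR were present in part. Of 11, 4 were tested, with a median log2 fold of -0.93. The activity-dependent receptor Nr4a1 was at 3.98, 0 and 0.0201 FPKM in PV and 35.3, 5.59 and 4.94 in Drd2, and Nr4a2 at 1.56, 4.40 and 1.48 in PV and 0, 0.131 and 0 in Drd2. Both pairs of ranges did not overlap, in opposite directions, and neither gene passed (limma adjusted p = 0.272 and 0.239). Nr4a2 reached 1 FPKM only in the PV libraries and entered the test only through them, so its lack of overlap is no support. The oxysterol receptor Nr1h2 was at 1.08 to 31.3 FPKM and its relative Nr1h3 at 0 to 10.7, with overlap. Vdr, the vitamin D receptor, reached 0.024 FPKM in Drd2 replicate 2 and was listed at 0 elsewhere.

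Cofactors of the receptors were broadly present: all 9 corepressors and all 11 coactivators passed the filter on low values. Among corepressors, Ncor1 was at 20.8, 21.3 and 22.4 FPKM in PV and 20.5, 15.3 and 14.7 in Drd2. The deacetylase Hdac3 had a log2 fold of -1.40 ± 0.94 (SE), Tbl1xr1 of 0.89 ± 0.63 and Hr of 0.88 ± 0.65. The list median was 0.35. Among coactivators, with a median of 0.34, Ppargc1a, a regulator of mitochondrial genes, was at 15.0, 18.8 and 19.1 FPKM in PV and 2.81, 7.86 and 7.14 in Drd2, without overlap (log2 fold 1.51 ± 0.56; limma adjusted p = 0.297). The acetyltransferases Ep300 and Crebbp had log2 folds of 1.29 ± 0.59 and 0.63 ± 0.60, and Ncoa1 of 0.80 ± 0.63, each without overlap.

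Genes known to respond to the hormones completed the lists. Of 12 retinoic acid responsive genes 3 were tested (median log2 fold -1.70), among them Drd2, the gene that names one of the classes, and the growth factor receptor Ret (log2 fold 1.18 ± 0.61, SE). Drd2 itself did not pass (adjusted p = 0.0501 in limma) but passed in 5 other settings. This gene reached 1 FPKM only in the class named for it, so its fold, its calls and its part in the median are no support. The untested responsive genes, among them Cyp26a1 and Rarb, did not reach 1 FPKM in 3 libraries. Of 10 thyroid hormone responsive genes 6 were tested, with a median of 0.31. Klf9, a transcription factor induced by thyroid hormone and by glucocorticoids, was at 28.3, 22.3 and 30.9 FPKM in PV and 8.24, 16.5 and 12.7 in Drd2. Its ranges did not overlap, and it did not pass (log2 fold 1.10 ± 0.47; limma adjusted p = 0.370). Thrsp and Ntf3 had log2 folds of -1.06 ± 0.63 and 1.14 ± 1.15, with overlap.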

How the data were processed

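Per the labels, libraries were made from column-extracted RNA with a SMARTer mRNA kit. The deposited table holds FPKM values made by the authors. The submitters' processing notes name the aligner STAR and list hg38, GRCh38 and mm10 as builds. The sources used here do not name the gene quantifier, its strand setting or the annotation. Positions and exon lengths came from GENCODE M21 (mm10), which held 94.1% of the identifiers. Reads were recovered as FPKM times exon length over the value of 1 read. For Rxra and Thrb they were not whole with these lengths, and none are given for either gene.

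A gene was tested when 3 of the 6 libraries or more reached 1 FPKM (11478 genes). Log2(FPKM + 1) values were compared by limma 3.58.1 in R 4.3.3 (trended variance, 2-sided, Benjamini-Hochberg adjustment, threshold 0.05). The test was run on simulated data first. Members and lists were chosen with earlier results of these data known. Named genes were the receptors, up to 4 genes per list by smallest p, 6 genes of defining role, the 5 most like Rxrg or Thra, and Pvalb and Drd2; Fabp5, Dio1, Dio3, Vdr, Cyp26a1, Ncor1, Nr1d1 and Top2b were added after their values were seen. Alternatives were other pseudocounts, filters, scalings, variance models, voom on recovered reads and leaving out libraries; leaving out 2 libraries together, leaving libraries out of shares and a scaling on nuclear protein-coding genes were chosen after seeing the data. Some genes that this rule names are not reported here. Promoters are from RefSeq.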

Additional observations from a re-analysis of the deposited data

How the results depend on the processing

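The number of genes past the threshold moved from 30 to 4 with a pseudocount of 0.1 FPKM, 68 with 5 FPKM, 0 with no filter on low values (1509 at an unadjusted p under 0.05), 68 with quantile normalization, 46 without a trend and 105 with array weights. It ran from 1 (without Drd2 replicate 3) to 56 (without PV replicate 6) when 1 library was left out, with 2 and 3 without Drd2 replicates 1 and 2. In settings chosen after seeing the data it was 18 without PV replicate 7 and Drd2 replicate 3 together and 14 after rescaling over nuclear protein-coding genes. The receptors past the threshold went from 1 (Rxrg) to 0 with either other pseudocount, no filter, voom on recovered reads, both settings chosen later and each single library left out (0 to 0); the cause was not tested. The pathway genes past it went from 0 to 1 with TPM, quantile normalization, no trend, array weights and the 2 libraries left out together. Each time this was Drd2, the gene behind the Drd2 label. The fold of Rxra (-0.29) turned to 0.019 with quantile normalization, 0.025 without PV replicate 7 or 8 and 0.21 without PV replicate 7 and Drd2 replicate 3 together, and that of Rxrb (-0.52) to 0.23 without Drd2 replicate 2; with 1 library left out they ran from -0.91 to 0.025 and from -1.23 to 0.23. Scaling moved the median log2 fold of all genes from -0.28 to -0.50 (TPM), -0.12 (median of ratios), -0.13 (nuclear protein-coding genes) and 0.05 (quantile), so relative to it Rxrg lay at -4.87 as reported and Thra at 0.61. With quantile normalization 22 of 68 calls were higher in PV, against 5 of 30. Per recovered read the mean share of Rxrg in the RXR sum was 64.7% in Drd2 and 0.999% in PV, against 74.1% ± 26.6 and 1.69% ± 2.86 (SD, n = 3 each) per length. The read sums include Rxra, whose recovered reads were not whole. Leaving out 1 library was a choice made after seeing the data. The PV mean per length then ran from 0.042% (without replicate 7) to 2.54% (without replicate 8) and the Drd2 mean from 63.6% to 89.1%. No paired analysis was possible because the groups share no replicate number.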

Other observations

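Other nuclear receptors were read from a list of 25, of which 13 were tested. A log2 fold above 0 was found for 9 and below 0 for 4, where 61.6% of all genes tested lay below 0. The median was 0.59, where that of all genes tested was -0.28. None passed in limma. An unadjusted p under 0.05 was found for 3 of the 13, where the share over all genes tested was 12.8%. The retinoid-related orphan receptor Rorb reached 6.50, 1.12 and 15.2 FPKM among PV libraries and 0.0161, 0.328 and 0.261 among Drd2 libraries, without overlap (log2 fold 2.41 ± 0.80, SE; limma adjusted p = 0.240). As with Nr4a2, Rorb entered the test only through its PV values, so its lack of overlap is no support. Nr2f1, a developmental orphan receptor, had a log2 fold of 1.43 ± 0.70 and Nr1d1 of -2.90 ± 1.03, both with overlapping groups.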
